A study of Bactrocera dorsalis with 6 samples.

Results

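The adult male library of Bactrocera dorsalis, the oriental fruit fly, was compared with the library labelled female, unigene by unigene and isoform by isoform. A unigene is a cluster of assembled transcripts that stands for 1 gene. Of 10799 unigenes, the 4127 with 500 or more expected counts in both columns together were kept, and these held 95.01% of the counts of the male library and 94.99% of those of the library labelled female. Isoform shares were compared in 3355 unigenes that had at least 2 isoforms and at least 100 counts in each of the libraries.

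The series holds 6 libraries, from eggs, larvae, pupae, males, females and mated females, with 1 library each. All flies came from 1 research colony whose larvae were reared on liquid artificial diet, and no flies were treated. Each library, male or labelled female, was a pool of RNA from virgin adults that were sexed at emergence and collected on each of the first 7 days, and the mated females were taken from mating cages set up after those 7 days. Age and mating therefore cannot be told apart where mated females are set beside the others. The number of flies in a pool is not given in the sources used here. Since each group is 1 pooled library of whole flies, a difference between libraries had no replicate check, no test was run, and intervals cover counting error only. In whole flies, fewer cells of a type and less RNA per cell cannot be told apart.

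Adult flies of either sex differ most in their gonads. Ovaries of mature females make large amounts of eggshell RNA, and testes make the axonemal dyneins that move the sperm tail. In Drosophila melanogaster the transcription factor gene doublesex (dsx) is spliced into a male and a female form, under the control of transformer and its partner tra-2, and the male-specific-lethal (msl) proteins raise transcription of the single male X chromosome. Sisterless A (sisA) and scute are X-linked signals that start the pathway in early Drosophila embryos.

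The dsx isoform shares of the library labelled female lay closer to those of males than to those of mated females. The 4 dsx isoforms were paired by their level in mated females, so the mated female share is partly fixed by the grouping. The pair low there, seq5 and seq6, took 86.4% of dsx counts in males (95% Wilson interval 82.7 to 89.5%, 389 counts). It took 87.2% in the library labelled female (83.4 to 90.2%, 367 counts), against 1.77% in mated females (0.91 to 3.39%, 475 counts). Without pairing, the distance of shares, defined below, was 21.8 percentage points from labelled female to male and 85.4 to mated female. Which isoforms are the male form was not tested. The eggshell gene Cp19 (comp24503_c0) had 4 counts in males and 2 in the library labelled female, against 12700 in mated females. Since the virgin adults were pooled over the days in which adults mature, a low eggshell level cannot be told apart from immaturity of females and says nothing on the label by itself. In the part of the annotation used here, 7 unigenes have a protein match with the word axonemal, a list chosen after its values were seen. They summed to 413 counts in males and 386 in the library labelled female, against 2 in mated females. The leading member, an axonemal dynein heavy chain 7 (comp14849_c0), had 311 counts in males and 288 in the library labelled female. It had 0 in mated females, which was taken to allow up to 3 counts. Which flies gave the library labelled female cannot be told from these files, and the differences described here are those between the 2 libraries, not between the sexes.

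The libraries were of similar depth, with 9905262 expected counts in males and 8632705 in the library labelled female, so that an equal level corresponds to 1.15 times as many counts in males. Counts were scaled by these totals. The ratio of male over labelled female had a median of 0.03 on the log2 scale, with quartiles of -0.12 and 0.18 and an SD over unigenes of 0.23. The median unigene differed by 1.11 fold in either direction. The highest ratio was 1.10 and the lowest was -1.42 on the log2 scale.

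A total of 380 unigenes (9.21% of those compared) were more than 25% higher in males, here called past 25% toward male. Another 256 unigenes (6.2%) were more than 25% higher in the library labelled female. At 1.5 fold the numbers were 41 toward male (0.993%) and 35 toward labelled female (0.848%), which makes 76 in all (1.84%). With size factors in place of totals the split at 1.5 fold was 49 toward male and 25 toward labelled female for DESeq2, and 48 toward male and 26 toward labelled female for the TMM factors of edgeR. Past 2 fold there was 1 unigene toward male (0.0242%) and 3 toward labelled female (0.0727%). Counting error alone left 2077 ratios whose 95% interval included equality, while 1183 intervals lay wholly above it and 867 wholly below it (49.7% off equality). The interval lay wholly past 1.5 fold in 10 unigenes toward male and in 17 toward labelled female.

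**Figure D1:**
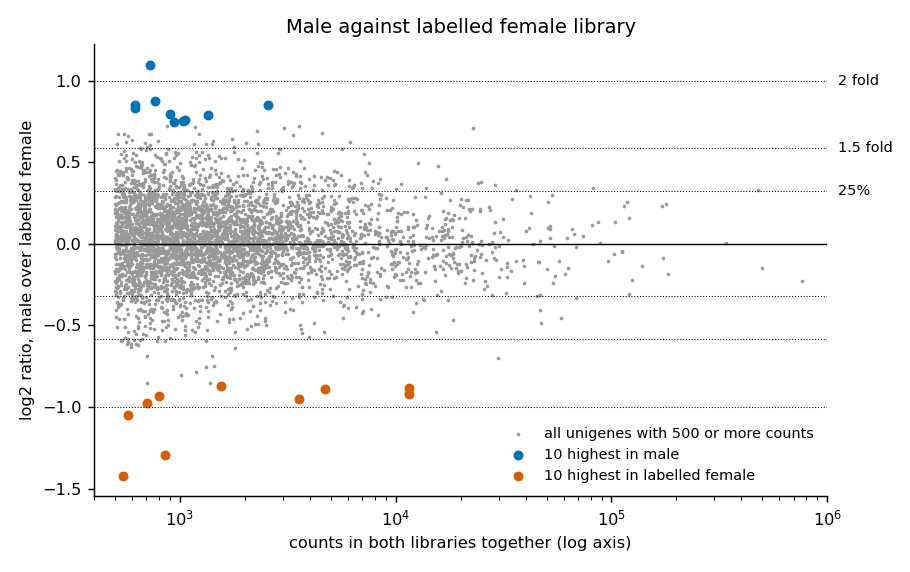
Log2 ratio of scaled counts, male over labelled female (y axis), against the expected counts of both libraries together (x axis, log scale), for 4127 unigenes (gray) with the 10 largest ratios toward male in blue and toward labelled female in orange; dotted lines mark the 25% threshold, 1.5 fold and 2 fold in each direction. Most unigenes lie within the inner lines, and 4 lie past 2 fold.

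The libraries were not copies of each other. A chi-square statistic per unigene, which averages 1 where libraries differ by counting alone, averaged 22.6, with a median of 3.88, between male and labelled female. In the other 14 pairs of libraries the mean lay between 412 and 1061 and the median between 48.4 and 302. Past 2 fold in either direction were 2328 of 4779 unigenes (48.7%) for male against mated female and 2279 of 4625 (49.3%) for labelled female against mated female, 2 comparisons that share the mated female library. In each of the 14 other pairs, at least 27 of the unigenes past the minimum had 0 counts in 1 library and thus 500 or more in the other. Between male and labelled female there were 0 of these.

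The spread of the ratio was slightly smaller where counts were higher. In the quartile of unigenes with the fewest counts, 500 to 791 in both libraries, the SD was 0.27 on the log2 scale, and in the quartile with 2716 or more counts it was 0.21. The median half-width of the counting interval was 0.23 in the lowest quartile and 0.08 in the highest. At the threshold itself, the lowest unigene kept had 500 counts and the highest left out had 499.

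Among the unigenes with the most counts the libraries were close. comp28816_c2 had the most, with 378295 counts in males and 386125 in the library labelled female (log2 ratio -0.23). comp29362_c1 had 252513 counts in males and 243724 in the library labelled female (-0.15), and comp27198_c0 had 181509 counts in males and 157695 in the library labelled female (0.00, interval -0.01 to 0.01). The widest gap of the 5 was in comp27887_c0, which had 282068 counts in males and 195446 in the library labelled female (0.33), with 3786 counts in pupae and 4589 in mated females. None of these is named in the part of the annotation used here.

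The unigene with the largest ratio toward male was comp24204_c0, with 516 counts in males and 210 in the library labelled female, a log2 ratio of 1.10 (95% counting interval 0.86 to 1.34). It had 0 counts in eggs, 17 in larvae, 283 in pupae and 290 in mated females. comp18136_c0, whose Drosophila ortholog is listed as FBgn0038428, followed with 523 counts in males and 248 in the library labelled female (0.88, 0.66 to 1.10). comp21509_c0 (FBgn0017457) had 418 counts in males and 202 in the library labelled female (0.85). The other 7 of the 10 largest toward male had log2 ratios between 0.75 and 0.85.

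comp24845_c1 was the most abundant of these 10 in counts. It had 1720 counts in males and 833 in the library labelled female (0.85, 0.73 to 0.97), against 6 in mated females. comp25768_c0 had 620 counts in males and 322 in the library labelled female, against 173 in mated females, and 1 to 2 counts in eggs, larvae and pupae. comp17620_c0 (FBgn0026084) had 697 counts in males and 359 in the library labelled female, with 5552 in pupae. Of the 10, 5 were higher in males per library total than in any other library, 3 were highest in pupae and 2 in eggs.

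The unigene with the largest ratio toward labelled female was comp29182_c0, with 163 counts in males and 380 in the library labelled female, a log2 ratio of -1.42 (-1.69 to -1.15). It had 3 counts in mated females and 164 in pupae. comp30560_c0 had 273 counts in males and 584 in the library labelled female (-1.30, -1.51 to -1.09), and 883 in larvae. Among the 4127 unigenes these 2 were the only ones whose counting interval lay wholly past 2 fold. comp26211_c0 had 205 counts in males and 369 in the library labelled female (-1.05, -1.30 to -0.80).

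More abundant unigenes also stood on this side. comp30565_c0 had 4367 counts in males and 7191 in the library labelled female (-0.92, -0.97 to -0.86), against 335 in mated females. comp30244_c1 had 4441 counts in males and 7135 in the library labelled female (-0.88, -0.94 to -0.83), and 0 in eggs, 15 in larvae, 2054 in pupae and 29 in mated females. comp23269_c0 had 1323 counts in males and 2225 in the library labelled female (-0.95), and comp30570_c0, the longest of the 10 with 14012 bases, had 1805 counts in males and 2918 in the library labelled female (-0.89). Of the 10, 5 were highest per library total in larvae, 4 in the library labelled female and 1 in eggs. None of the 20 largest ratios belonged to a unigene that was highest in mated females. The 20 were ranked on the ratio of male over labelled female, which partly fixes how many were highest in either of these. The matching shares over all unigenes were not computed, so the counts of highest libraries cannot show an excess or a lack. None of the 20 had a gene name in the part of the annotation used here.

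**Figure D2:**
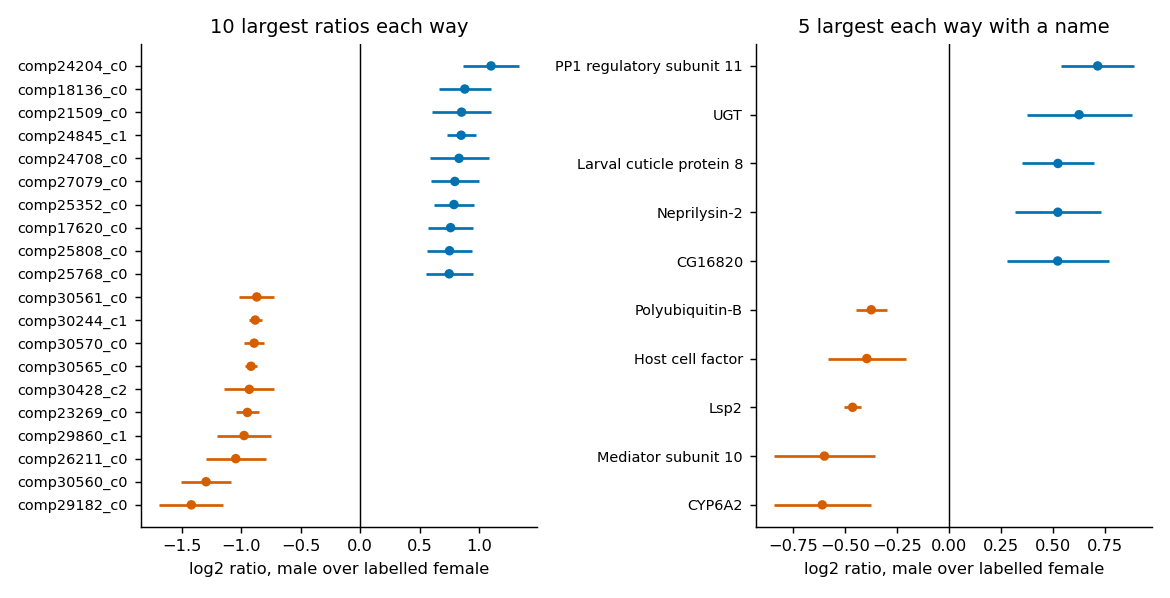
Log2 ratio, male over labelled female, with its 95% counting interval, for the 10 unigenes with the largest ratio each way (left) and for the 5 each way among those with a gene or protein name (right); blue is higher in male, orange higher in labelled female. All of these intervals exclude equality, and comp29182_c0 reaches -1.42.

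The study's annotation was read only in part, and 217 of the unigenes compared carry a name here. Among these 217, the largest ratio toward male was in the match of protein phosphatase 1 regulatory subunit 11 (comp14783_c0), an inhibitor of that phosphatase. It had 768 counts in males and 408 in the library labelled female, a log2 ratio of 0.71 (0.54 to 0.89). Larval cuticle protein 8 (comp14767_c0), a structural protein of the cuticle, had 737 counts in males and 447 in the library labelled female (0.52), with 10134 in pupae and 22 in mated females. Neprilysin-2 (comp14797_c0), a membrane peptidase, had 511 counts in males and 310 in the library labelled female (0.52, 0.32 to 0.73). Histone H4 (comp16422_c0), picked after its values were seen, had 3665 counts in males and 2440 in the library labelled female (0.39, 0.31 to 0.46).

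Toward labelled female, the named unigene with the largest ratio was CYP6A2 (comp22299_c0), a cytochrome P450, with 269 counts in males and 358 in the library labelled female (-0.61, -0.84 to -0.38). It had 0 counts in eggs, larvae and pupae and 23 in mated females. Mediator subunit 10 (comp14887_c0), part of the complex that links transcription factors to RNA polymerase II, had 249 counts in males and 329 in the library labelled female (-0.60). Host cell factor (comp14610_c0), a chromatin cofactor, had 435 counts in males and 499 in the library labelled female (-0.40), and polyubiquitin-B (comp15646_c0) had 2695 counts in males and 3046 in the library labelled female (-0.38). Lsp2 (comp28303_c1), a storage protein that larvae build up, had 8410 counts in males and 10116 in the library labelled female (-0.46, -0.51 to -0.42), and 170089 counts in pupae.

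Unigene length moved with the ratio. Lengths could be recovered from the deposited FPKM for 3976 of the 4127 unigenes. In the shortest quartile, 348 to 1626 bases, the median log2 ratio was 0.11, and in the next bins it was 0.06, 0.01 and, from 3435 bases upward, -0.08. Of the 994 unigenes in the shortest quartile, 151 were past 25% toward male and 22 toward labelled female. Of the 994 in the longest quartile, 21 were past it toward male and 146 toward labelled female. Spearman's rho of ratio and length across unigenes, which share the same 2 libraries, was -0.34, and among 1508 unigenes with a single isoform it was -0.26. In the other 14 pairs of libraries rho lay between -0.16 and 0.17.

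The largest ratios followed the same order. The 10 unigenes highest toward male had a median length of 1140 bases, and the 10 highest toward labelled female one of 4028 bases, against 2352 bases over all unigenes compared (9 of each 10 had a length). The median of each length decile was then subtracted in the 3976 unigenes with a length, an alternative chosen after the data were seen. Of these, 242 stood past 25% toward male and 243 toward labelled female. At 1.5 fold 15 stood toward male and 26 toward labelled female. Unigenes without a length were left out, so a lower number is not an effect of the subtraction alone. Of the 63 unigenes past 1.5 fold with a length, 35 remained past it. The 151 unigenes without a length, which were listed at 0 FPKM in every library, had a median of 0.18, with 47 past 25% toward male and 5 toward labelled female. Their 0 FPKM does not mean absence, since comp30244_c1 had 7135 counts in the library labelled female. Those named in this report, such as comp24204_c0, comp30244_c1 and CYP6A2, had 0 counts in eggs. Values after subtraction of the length median therefore leave out such unigenes. The part of length in the differences was not tested further.

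**Figure D3:**
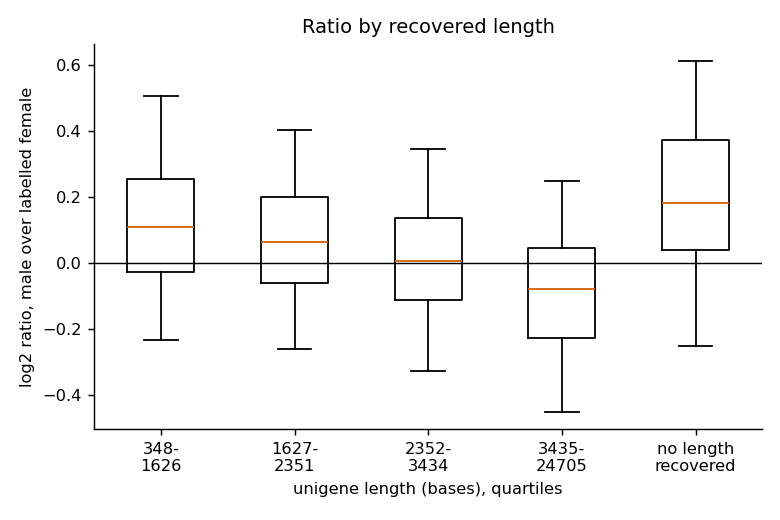
Log2 ratio, male over labelled female (y axis), in quartile bins of recovered unigene length (x axis, bases) and in unigenes with no recovered length; boxes give the quartiles with the median in orange, and whiskers the 5th and 95th percentiles. The median goes down from 0.11 in the shortest quartile to -0.08 in the longest. Unigenes with no recovered length are those listed at 0 FPKM in every library, and those named in the text had 0 counts in eggs.

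Unigenes that mark other stages were then set beside the ratio. Stage-high lists were made from eggs, larvae, pupae and mated females alone, as unigenes at 10 CPM or more (counts scaled to a common library total) in 1 of these and at least 4 times the level of each of the other 3. Of 484 pupae-high unigenes, 233 had 500 or more counts in both adult libraries together, with a median log2 ratio of 0.17 against 0.03 over all unigenes. Past 25% were 59 toward male (25.3%, against 9.21% of all) and 6 toward labelled female (2.58%, against 6.2%). The median length was 1768 bases over the 151 of the 233 with a length. For these 151 alone the median was 0.10 after subtraction of the length median, a smaller set than the one at 0.17.

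Members of the pupae-high list lay on both sides. comp28024_c2 had 14846 counts in males and 7914 in the library labelled female (0.71, 0.67 to 0.75), against 28234 in pupae and 1967 in mated females. comp22721_c0 had 2943 counts in males and 1602 in the library labelled female (0.68), against 863 in pupae and 1 in mated females. On the other side were comp30244_c1, given above, and comp29824_c0, which had 12338 counts in males and 17494 in the library labelled female (-0.70, -0.74 to -0.67), against 10389 in pupae and 5 in mated females. Summed over the whole list, the level was 45601 CPM in males and 43712 CPM in the library labelled female, against 4133 CPM in mated females.

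The larvae-high list had 44 of its 273 unigenes past the count minimum, with a median log2 ratio of -0.05, which was -0.28 with an 8-fold margin in place of 4-fold and -0.17 with a minimum of 100 counts. Past 25% were 2 toward male (4.55%, against 9.21% of all) and 11 toward labelled female (25%, against 6.2%). comp30560_c0, given above, stood lowest, and comp27547_c0 had 1611 counts in males and 2019 in the library labelled female (-0.52), with 3247 in larvae. The median length was 1982 bases, and after subtraction of the length median the list stood at -0.07. Of the 53 egg-high unigenes only 2 reached the count minimum.

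The same stages stood out among the unigenes past 1.5 fold. Of the 41 toward male, 22 had their highest level among eggs, larvae, pupae and mated females in pupae (53.7%, against 24.3% of all unigenes compared). Of the 35 toward labelled female, 17 had it in larvae (48.6%, against 19.3%). The median length was 1298 bases in the direction of males and 4028 bases toward labelled female.

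Of the 181 mated-female-high unigenes, 77 had 500 or more counts in both libraries together, with a median log2 ratio of 0.07. For the 59 of these with a length, the median was -0.02 after subtraction of the length median. These medians cover different sets, so their gap is not an effect of length alone. Of the 77, 9 were past 25% toward male (11.7%, against 9.21% of all) and 2 toward labelled female (2.6%, against 6.2%). Many of the rest were nearly without counts in both, and 68 of the 181 had fewer than 30 counts in either library. These 68 summed to 249 counts in males and 236 in the library labelled female (log2 ratio -0.12, interval -0.38 to 0.14), against 279847 counts in mated females.

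By counts, comp28593_c1 led the mated-female-high list, with 4694 counts in males and 3589 in the library labelled female (0.19, 0.13 to 0.25), against 335735 in mated females. comp25323_c0 had 23 counts in males and 25 in the library labelled female, against 72383 in mated females. comp24600_c0 (FBgn0003979) had 1 count in males and 4 in the library labelled female, against 32912 in mated females. By contrast comp30055_c0 had 29372 counts in males and 21407 in the library labelled female, against 30637 in mated females, and comp28669_c0 had 28855 counts in males and 25414 in the library labelled female, against 27994 in mated females. The list thus held unigenes shared by all 3 adult libraries as well as unigenes with counts almost only in mated females.

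The detoxification families were close to equal. Cytochrome P450s (P450), oxidases that act on hormones and plant toxins, had 39 of 92 listed unigenes past the count minimum, with a median log2 ratio of 0.05. Past 25% were 3 toward male (7.69%, against 9.21% of all) and 1 toward labelled female (2.56%, against 6.2%). CYP28D1 (comp23018_c0) had 725 counts in males and 453 in the library labelled female (0.48, 0.31 to 0.65), CYP4G15 had 303 counts in males and 201 in the library labelled female (0.39), and CYP6U1 (comp27822_c1) had 1093 counts in males and 734 in the library labelled female (0.38). Glutathione S-transferases (GST), which couple glutathione to reactive compounds, had 21 of 34 past the minimum with a median of 0.06. Past 25% were 2 toward male (9.52%, against 9.21% of all) and 0 toward labelled female (against 6.2%). The GST unigene comp26807_c0 had 897 counts in males and 551 in the library labelled female (0.50), while comp28261_c0 had 17250 counts in males and 16843 in the library labelled female (-0.16).

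UDP-glucuronosyltransferases (UGT), which attach sugars to small molecules, had 11 of 23 past the minimum with a median of 0.02, which turned to -0.15 with a minimum of 2000 counts. Past 25% were 2 toward male (18.2%, against 9.21% of all) and 0 toward labelled female (against 6.2%). The higher of these, comp25948_c0, had 361 counts in males and 204 in the library labelled female (0.63, 0.37 to 0.88), and the lowest of the family, comp27709_c0, had 2634 counts in males and 2647 in the library labelled female (-0.21). Summed over each family, P450s were at 9487 CPM in males and 9406 CPM in the library labelled female. GSTs were at 5427 CPM in males and 5394 CPM in the library labelled female, and UGTs at 1936 CPM in males and 1923 CPM in the library labelled female.

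Genes that respond to CncC and Keap1, the regulators of the xenobiotic response, came in lists of orthologs of genes that were raised or lowered when the pathway was activated in Drosophila. The 26 raised ones past the minimum had a median log2 ratio of -0.02, with 0 past 25% toward male (against 9.21% of all) and 1, Lsp2, toward labelled female (3.85%, against 6.2%). The 47 lowered ones had a median of 0.15, or 0.07 after subtraction of the length median, with 7 toward male (14.9%, against 9.21% of all) and 2 toward labelled female (4.26%, against 6.2%). CG16820 (comp21665_c0) had 374 counts in males and 227 in the library labelled female (0.52, 0.28 to 0.77), and Lsd-1 (comp23664_c0), a lipid droplet protein, had 1498 counts in males and 954 in the library labelled female (0.45, 0.33 to 0.57). On the other side, the clock repressor cwo had 581 counts in males and 644 in the library labelled female (-0.35), and Ppn, an extracellular matrix protein, had 448 counts in males and 495 in the library labelled female (-0.34).

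**Figure D4:**
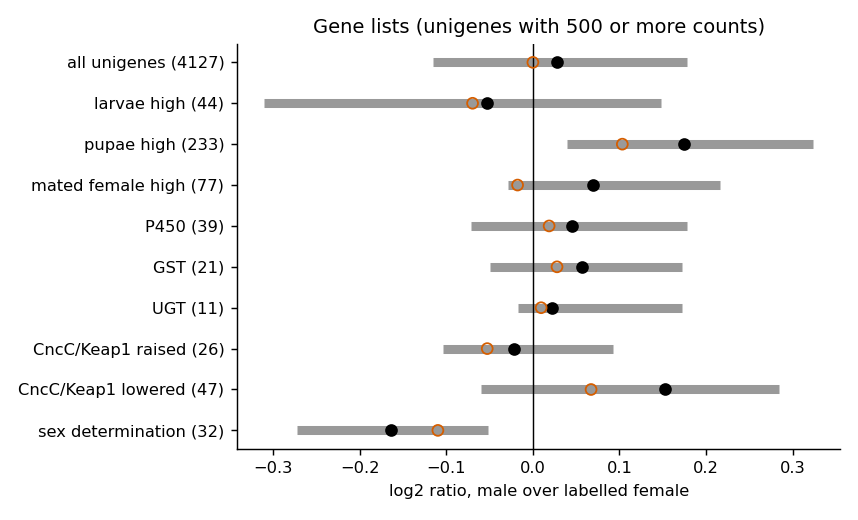
Median (black dot) and quartiles (gray bar) of the log2 ratio, male over labelled female, for all unigenes and for 9 lists, with the number of unigenes at 500 or more counts in brackets; open orange circles give the median after the median of each length decile was subtracted. Pupae-high and CncC/Keap1-lowered unigenes lie at 0.17 and 0.15, and the sex determination list at -0.16. The open circles cover only the unigenes of each list that have a recovered length.

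Genes of single functions gave smaller sets. Of the cuticle genes, Cpr49Ab (comp27724_c0) had 1521 counts in males and 1004 in the library labelled female (0.40, 0.28 to 0.52), against 0 in mated females, and Cpr100A (comp28916_c2) had 11031 counts in males and 8596 in the library labelled female (0.16) against 111 in mated females. The chitin-binding gene obst-B (comp18484_c0) had 2321 counts in males and 1641 in the library labelled female (0.30), and obst-A (comp20829_c0) had 2514 counts in males and 2362 in the library labelled female (-0.11). Among immune genes, the glucan receptor GNBP3 (comp27748_c0) had 754 counts in males and 562 in the library labelled female (0.23). The antibacterial peptide AttA (comp23040_c0) had 253 counts in males and 191 in the library labelled female (0.21, -0.07 to 0.49). PGRP-SB1 (comp26036_c0) had 528 counts in males and 414 in the library labelled female (0.15, -0.04 to 0.34). Hml (comp28433_c0) lay on the other side, with 410 counts in males and 374 in the library labelled female (-0.07, -0.27 to 0.14). Npc2d (comp18245_c0) had 1 count in each. Jhe, the esterase that breaks down juvenile hormone, had only 24 counts in males and 9 in the library labelled female (1.22, 0.06 to 2.51), and the juvenile hormone-induced JhI-26 (comp26947_c0) had 942 counts in males and 744 in the library labelled female (0.14). Jheh1 (comp25416_c0), also a juvenile hormone gene, had 111 counts in males and 96 in the library labelled female (0.01, -0.40 to 0.42).

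Of the storage and lipid genes, Lsp2 and Lsd-1 were past 25%, in opposite directions, and the rest past the minimum were not. The glycerol phosphate dehydrogenase Gpdh (comp28812_c0) had 10069 counts in males and 8899 in the library labelled female (-0.02, -0.06 to 0.02). ATPCL (comp27519_c1), which supplies acetyl-CoA for lipid synthesis, had 5238 counts in males and 4741 in the library labelled female (-0.05). All 6 purine and amino acid genes had log2 ratios between -0.09 and 0.11, among them Gclc (comp28755_c0), of glutathione synthesis, with 1577 counts in males and 1417 in the library labelled female (-0.04).

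The sex determination list, made by the study from all matches of Drosophila genes of this pathway, had 32 of 76 unigenes past the minimum, with a median log2 ratio of -0.16. Past 25% were 0 toward male (against 9.21% of all) and 7 toward labelled female (21.9%, against 6.2%). Of these 7, 5 were matches of Notch, a receptor with repeats shared by many proteins, 1 of Sex-lethal, an RNA-binding protein, and 1 of Gro, a corepressor. The 15 Notch matches had a median of -0.27 and a median length of 3798 bases, and the other 17 had a median of -0.11 and a median length of 2868 bases. After subtraction of the length median the list stood at -0.11. comp30573_c0, the lowest, had 1625 counts in males and 1997 in the library labelled female (-0.50, -0.59 to -0.40).

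Among genes of the pathway with a single match, tra-2 alone had a counting interval that excluded equality. Over all unigenes compared, 49.7% had an interval off equality, so such an interval does not single out tra-2. Moreover, tra-2, msl-1, msl-2, sisA and scute were below the count minimum used for that comparison. dsx (comp25690_c0) had 389 counts in males and 367 in the library labelled female (-0.11, -0.32 to 0.10), against 475 in mated females. tra-2 (comp23083_c0) had 234 counts in males and 149 in the library labelled female (0.45, 0.15 to 0.76), against 630 in mated females. msl-1 (comp27436_c0) had 198 counts in males and 184 in the library labelled female (-0.09, -0.39 to 0.20), msl-2 (comp27138_c0) had 62 counts in males and 70 in the library labelled female (-0.37, -0.89 to 0.14) and msl-3 (comp29813_c1) had 747 counts in males and 712 in the library labelled female (-0.13, -0.28 to 0.02). sisA (comp27850_c0) had 0 counts in both libraries, taken to allow up to 3 in each, against 287 in mated females. The other early signal, scute, had 0 in both and in mated females.

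Within dsx the libraries differed in which of the pair seq5 and seq6 took the counts. In males seq6 had 54.1% of dsx counts (49.1 to 59.0%) and seq5 had 32.3% (27.9 to 37.1%). In the library labelled female seq6 had 34.1% (29.4 to 39.1%) and seq5 had 53.1% (48.0 to 58.1%). The distance, meaning the sum of absolute share differences divided by 2, was 21.8 percentage points between male and labelled female, against 84.7 between male and mated female. These intervals do not cover the way in which the estimation divides reads between similar isoforms.

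**Figure D5:**
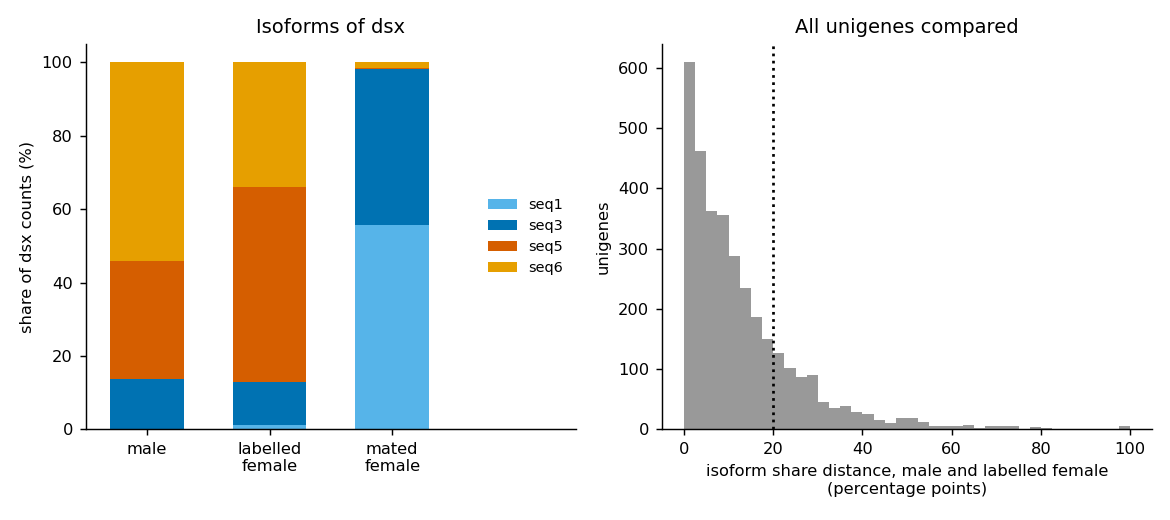
Left, share of dsx counts (y axis, %) held by its 4 isoforms in males, the library labelled female and mated females. Right, number of unigenes (y axis) by isoform share distance between male and labelled female (x axis, percentage points), with the line at 20. Seq5 and seq6 fill 86.4% and 87.2% of the first bars and 1.77% of the mated female bar.

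Over all 3355 unigenes compared, the median isoform distance between male and labelled female was 9.16 percentage points, with quartiles of 3.67 and 17.8. A distance of 20 points or more was found in 708 unigenes (21.1%), and in 586 (17.5%) the isoform with the most counts was not the same in both libraries. In the other 14 pairs the median distance lay between 12.8 and 24.1 points and the share at 20 points or more between 31.5% and 56.6%. For comparison, the median absolute log2 ratio of unigenes was 0.15 between male and labelled female and at least 0.51 in the other pairs. Among the 708 unigenes 154 were also past 25% in total counts. The share past 25% among all 3355 unigenes was not computed, so a link between isoform shares and total counts was not tested.

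Distances grew with the number of isoforms and shrank with counts. Unigenes with 2 isoforms had a median distance of 5.12 points, and those with 6 or more had 16.8 points. In the quartile with the fewest counts in the smaller library, 100 to 228, 28.2% were at 20 points or more, and in the quartile with 999 or more counts 10.4% were. Of the fixed lists, the CncC/Keap1-lowered genes had 10 of 37 unigenes at 20 points or more (27.0%, against 21.1% of all), the sex determination list 7 of 40 (17.5%) and the P450s 2 of 28 (7.14%).

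In 5 unigenes with 2 isoforms listed, counts fell to one isoform in males and to the other in the library labelled female, a distance of 100 points after rounding. comp27329_c0 had 381 counts in males, all on seq2, and 331 in the library labelled female, all on seq1. comp29158_c0 had 243 counts in males, on seq1, and 201 in the library labelled female, on seq2. In the same way comp28947_c0 had 215 counts in males and 231 in the library labelled female, comp23686_c0 had 160 counts in males and 121 in the library labelled female and comp28707_c0 had 103 counts in males and 109 in the library labelled female. In mated females, 3 of the 5 had most counts on the isoform of the library labelled female, with 100% on seq1 of comp27329_c0, 92.4% on seq1 of comp28947_c0 and 100% on seq2 of comp29158_c0. The other 2 had most counts in mated females on the isoform of males, with 67.8% on seq2 of comp23686_c0 and 95.1% on seq1 of comp28707_c0, the last from 23 counts.

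The next 5 in order had distances from 94.3 to 80.0 points. comp30322_c0 had 94.3% of its counts on seq1 in males and 91.6% on seq4 in the library labelled female. comp30293_c0, with 7 isoforms, had 75.6% on seq4 in males and 61.8% on seq5 in the library labelled female. comp25753_c0 had 82.0% on seq2 in males and 100% on seq1 in the library labelled female. Whether these isoforms differ in sequence enough for reads to be told apart was not tested.

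Below 500 counts, 18 unigenes had a counting interval wholly past 2 fold, 5 toward male and 13 toward labelled female. comp37082_c0 had 31 counts in males and 0 in the library labelled female, and the lower limit of its log2 ratio by the counting interval was 2.79. comp15597_c0, matched to a DNA polymerase I, had 56 counts in males and 3 in the library labelled female (log2 ratio 4.02, 2.40 to 6.34). Toward labelled female, comp28853_c1 had 1 count in males and 13 in the library labelled female (-3.90, -9.31 to -1.16), against 6074 in eggs and 4266 in mated females. comp14540_c0, matched to adenylate cyclase type 3, had 2 counts in males and 16 in the library labelled female (-3.20, -6.36 to -1.11). Of the 6672 unigenes below the minimum, 426 had no counts in either library and 3163 had fewer than 100 in both together, where counts are too few to show small differences.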

How the data were processed

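RNA from whole B. dorsalis was made into TruSeq libraries, 1 per stage, and sequenced as paired reads. The authors filtered reads on quality, assembled them with Trinity and kept transcripts with a predicted coding sequence. Reads were aligned with Bowtie 0.12.7 and quantified with RSEM (1.2.0 in the submitters' processing notes). The paper's methods give that version for filtering the assembly and another one for the expression values. The authors deposited raw expected counts of 10799 unigenes and 20666 isoforms, and FPKM values scaled with TMM factors. Every column belongs to a stage (0 are unmapped). There was no genome, and 0 identifiers matched the reference gene list. Names come from the study's own annotation, which was read here only in part, with 527 annotation rows. This gave 575 unigenes with a name and 2101 with a Drosophila ortholog identifier. The paper reports far more named transcripts and orthologs. Unigenes without a name here keep their identifiers and may be named in the full annotation.

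Expected counts were scaled by column totals, 7386960 to 9905262 per library. Unigenes with 500 or more counts in the pair were compared. Intervals of ratios are exact binomial (Clopper-Pearson) and those of shares are Wilson intervals, at the 95% level, on counts. A count of 0 was taken to allow up to 3, a fixed floor. The 95% upper limit computed for a count of 0 was slightly higher, at 3.69. Reads carried no molecular identifiers. Lengths were recovered from the ratio of counts to deposited FPKM. Named were the 10 largest ratios each way, the 5 largest each way with a name, the extremes of each detoxification list, the single-match sex genes, the 5 unigenes with most counts, the 10 largest isoform distances, up to 5 each way under 500 counts with an interval past 2 fold, and the 5 mated-female-high unigenes with most counts; members of lists past 25% were added as examples. Members and lists were chosen with earlier results of these data known, and the gene lists come from the study, apart from the stage-high lists, which were made from the counts of the other 4 libraries. With 1 library per group no test was run. Alternatives were TMM factors (edgeR 4.0.16), size factors (DESeq2 1.42.0), totals without the 10 largest unigenes, deposited FPKM, other minimums and the isoform sums. Ratio and interval code was tested on simulated data (Python 3.11.15, scipy 1.17.1).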

Additional observations from a re-analysis of the deposited data

How the results depend on the processing

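Scaling changed little: with TMM factors, size factors, totals without the 10 largest unigenes or summed isoform counts, counts past each fold stayed within 1.5 times. With deposited FPKM 22 unigenes stood past 1.5 fold toward labelled female and 0 past 2 fold toward male. The 151 unigenes at 0 FPKM in every library, of which all those named above had 0 counts in eggs, drop out there. These include comp24204_c0, the 1 unigene past 2 fold toward male, whose log2 ratio was 1.11 with TMM factors. They also include 4 unigenes past 1.5 fold toward labelled female by totals. The count minimum changed the numbers most. At 100 counts, 870 unigenes were past 25% toward male and 728 toward labelled female, 174 toward male and 207 toward labelled female past 1.5 fold, and 12 toward male and 30 toward labelled female past 2 fold. At 2000 counts these were 110 toward male and 69 toward labelled female, then 10 toward male and 5 toward labelled female, and 0 in both directions, and the median log2 ratio of UGTs was -0.15. Without a minimum and with 0.5 added they were 1804 toward male and 1926 toward labelled female, 813 toward male and 1070 toward labelled female, and 409 toward male and 546 toward labelled female, and the egg-high median was -0.20. Here fewer or more unigenes were compared. Asking that the counting interval lie wholly past the fold left 109 toward male and 78 toward labelled female at 25%, 10 toward male and 17 toward labelled female at 1.5 fold, and 0 toward male at 2 fold. After subtraction of length medians, chosen after seeing the data, 242 were past 25%, 15 past 1.5 fold and 0 past 2 fold toward male. Only the 3976 unigenes with a length were counted there. An 8-fold margin gave a larvae-high median of -0.28, from fewer unigenes. For isoforms, a minimum of 500 counts left 234 unigenes at 20 points or more, and 304 were at 30 points or more. The dsx distance was 21.4 points with FPKM shares. Of the values recomputed for single named unigenes, 192 stayed within the counting interval, 6 moved outside it when length medians were subtracted, and none past 25% changed sign. No paired analysis was possible because each group has 1 library. Small differences in unigenes below 500 counts are limited by depth.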

Other observations

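A unigene matched to a viral genome polyprotein (comp15339_c0), picked after its values were seen, had 824 counts in males and 825 in the library labelled female (log2 ratio -0.20, -0.34 to -0.06), against 6 in mated females and 0 in eggs, larvae and pupae. Both libraries also shared unigenes that were nearly without counts in mated females. A match of glyceraldehyde-3-phosphate dehydrogenase 2 (comp14882_c0), a glycolytic enzyme, had 1074 counts in males and 886 in the library labelled female, against 2 in mated females. A match of mannose-6-phosphate isomerase (comp14626_c0) had 376 counts in males and 280 in the library labelled female, against 0 in mated females. The antibacterial peptide Defensin-C (comp15765_c0) went the other way, with 2066 counts in males and 1788 in the library labelled female (0.01, -0.08 to 0.10), against 13968 in mated females. These unigenes were chosen after their values were seen, and no explanation was tested.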
